A study of Mus musculus with 10 samples.

Results

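The change of the polysome-to-RNA ratio with Lin28a at passage 3 (P3) was followed gene by gene in mouse neural stem cell cultures. For each gene the polysome value and the RNA-seq value were put on a log2 scale after 1 was added, and the RNA value was subtracted from the polysome value. The ratio change is this difference in the Lin28a culture minus the same difference in the control culture, so a positive value means a higher polysome-to-RNA ratio in Lin28a. Genes entered at a level of 5 or more in all 4 libraries. Of 17919 genes in the tables, 7817 did so, 7674 with a coding RefSeq accession and 143 with a non-coding one. Every gene was then assigned to the assay that carries its ratio change. A change was called polysome-driven where the polysome log2 ratio of Lin28a over control made up more than 2/3 of the summed sizes of the polysome and RNA log2 ratios. It was called RNA-driven where the polysome share was below 1/3, and was otherwise carried by both assays, in opposed directions or in the same one.

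The cells were neural stem cells of ICR mice, taken from the ventral midbrain at embryonic day 10, transduced with a lentivirus expressing Lin28a or with a mock control virus and passaged every 4 days. The 4 libraries compared are polysome RNA of the Lin28a culture and of the control culture at P3, and RNA-seq of the Lin28a culture and of the control culture at P3. RNA-seq of both cultures at passage 1 (P1) is used only to set other libraries beside the P3 values. Each group is 1 library of a primary culture, so no difference has a replicate check, no test was run and every value describes these libraries only. Expression was from a virus throughout, and the level reached in single cells is not given. The polysome RNA came from a cytoplasmic lysate with the nuclei spun out, run on a sucrose gradient at equal protein input. Neither the gradient fractions that were sequenced nor whether both assays used the same dishes is given in the sources used here. In a bulk culture, fewer cells of a type and less RNA per cell cannot be told apart.

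Messenger RNAs that are being translated carry several ribosomes and sediment as polysomes, while free RNAs stay near the top of a gradient. RNA in polysomes set against all RNA of the same gene is therefore widely read as an estimate of how much of an mRNA is engaged by ribosomes, and a ratio can change because its upper term, its lower term or both change. Lin28a, an RNA-binding protein of embryonic and stem cells, blocks the maturation of let-7 microRNAs, and it also binds many mRNAs directly and has been reported both to promote and to repress their translation. Ventral midbrain stem cells give rise to midbrain dopamine neurons in the embryo and make more glia after long culture.

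The targeted transcript followed the labels in both assays. Lin28a (NM_145833) had 17.9 RPKM (reads scaled to gene length and library size) in Lin28a polysomes and was listed at the floor of 0.00204 in control polysomes. In RNA-seq it had 104 FPKM (fragments scaled in the same way) in the Lin28a culture and 0.0620 FPKM in control at P3. Lin28b (NM_001031772), its paralog, was at 0.515 and 0.570 RPKM in Lin28a and control polysomes and at 0.115 and 0.273 FPKM in Lin28a and control RNA. Neither gene reached 5 in all 4 libraries, so neither has a ratio change here.

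Most genes kept nearly the same polysome-to-RNA ratio. The median ratio change over the 7817 genes was 0.07 on the log2 scale, with quartiles of -0.11 and 0.26, and 9 in 10 genes lay between -0.40 and 0.57. A higher ratio past 1.5-fold was found for 349 genes (4.46% of all tested) and a lower one for 125 (1.60%). Past 2-fold, 28 genes were higher (0.358%) and 4 were lower (0.0512%). The balance of higher and lower genes depends on how the libraries are scaled. Values summed over all genes came to 287368 RPKM in Lin28a and 268307 in control polysomes, and to 527477 FPKM in Lin28a and 571715 in control RNA. With the 4 libraries rescaled to equal totals over the 7817 genes, the median ratio change shifted by -0.14 to -0.07, and 144 genes were higher and 269 lower. With the median set to 0, 222 were higher and 198 lower. Directions of the ratio changes of gene groups are therefore given below relative to the median of all genes. Counts past 1.5-fold and the signs of polysome and RNA log2 ratios were not shifted in this way and depend on the scaling.

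RNA carried most of the ratio changes. Within the 7817 genes, the RNA log2 ratios of Lin28a over control at P3 had a variance of 0.115 across genes and the polysome log2 ratios one of 0.0547, which is 2.11 times as much in RNA. The RNA log2 ratio was the larger of the 2 by size in 62.1% of genes. Polysome and RNA log2 ratios, which share no library, had a Pearson correlation of 0.51 over the genes (Spearman 0.43), given as a description since genes are not independent. Of the 349 genes with a higher ratio, 198 were RNA-driven, 51 polysome-driven and 97 carried by both assays in opposed directions, while 3 moved the same way in both. Of the 125 with a lower ratio, 87 were RNA-driven, 10 polysome-driven and 25 opposed, and again 3 went the same way in both. Among the 28 genes higher past 2-fold, 19 were RNA-driven, 4 polysome-driven and 5 opposed, and of the 4 lower past 2-fold 3 were RNA-driven and 1 was opposed.

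**Figure D1:**
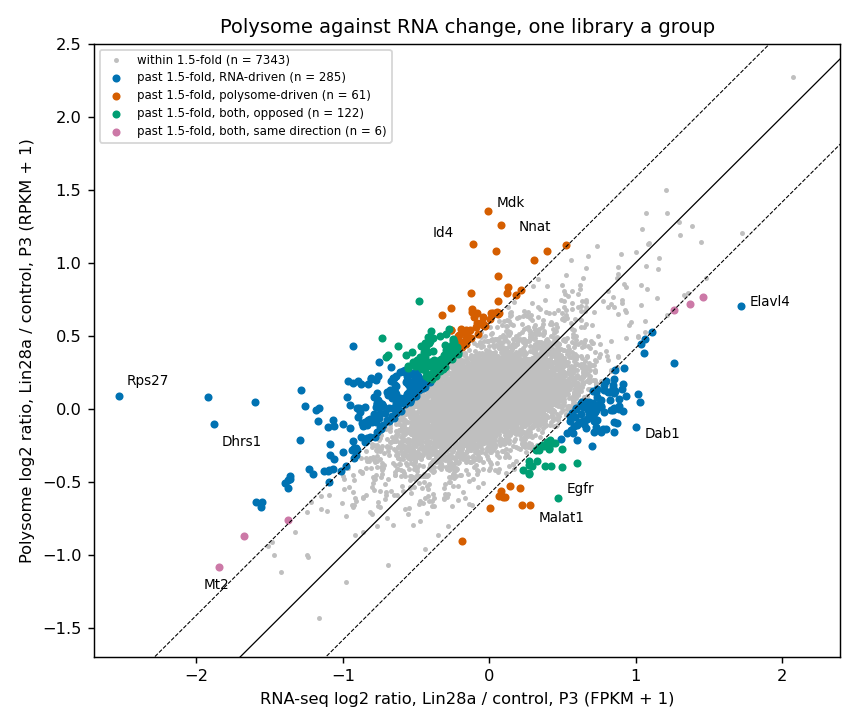
Each point is a gene at 5 or more in all 4 libraries, with its RNA-seq log2 ratio of Lin28a over control at P3 on the x axis and its polysome log2 ratio on the y axis (1 library a group). The solid line marks equal change in both assays and the dashed lines a ratio change of 1.5-fold; the 285 RNA-driven genes past it lie to the left and right of the cloud, and the 61 polysome-driven genes above and below it.

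Among genes chosen for a large RNA difference, polysome differences mostly had the same direction and were smaller. Choosing genes on 1 assay by itself favours smaller values in the other, and its part here was not tested. Over all 7817 genes, 5054 polysome log2 ratios were positive and 2763 negative. Of the 270 genes with higher RNA past 1.5-fold in Lin28a at P3 (3.45% of all tested), 237 also had a positive polysome log2 ratio and 65 were past 1.5-fold there, with a median polysome log2 ratio of 0.26. Of the 337 with lower RNA (4.31%), 268 were negative in polysomes and 46 past 1.5-fold, with a median of -0.24. The 39 genes with RNA higher past 2-fold (0.499%) were all positive in polysomes with a median of 0.79, and 29 passed 1.5-fold. Of the 52 with RNA lower past 2-fold (0.665%), 46 were negative in polysomes, with a median of -0.49, and 21 passed 1.5-fold. A gene with a large RNA difference thus has a ratio change of the opposite sign unless polysomes moved as far, because the RNA log2 ratio enters the ratio change with a minus sign.

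Seen from the polysome side, the assays lay closer together. Polysome levels were higher past 1.5-fold for 149 genes (1.91%), with a polysome median of 0.72 and an RNA median of 0.52. They were lower for 82 genes (1.05%), with a polysome median of -0.66 and an RNA median of -0.70. Of the 149, 136 were also positive in RNA and 65 past 1.5-fold, and of the 82, 75 were negative in RNA and 46 past 1.5-fold. Past 2-fold, 25 genes were higher in polysomes (0.320%) and 8 were lower (0.102%), and all 8 were lower past 1.5-fold in RNA too. Median ratio changes of these polysome-chosen genes were 0.23 for the 149 higher ones and -0.04 for the 82 lower ones.

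**Figure D2:**
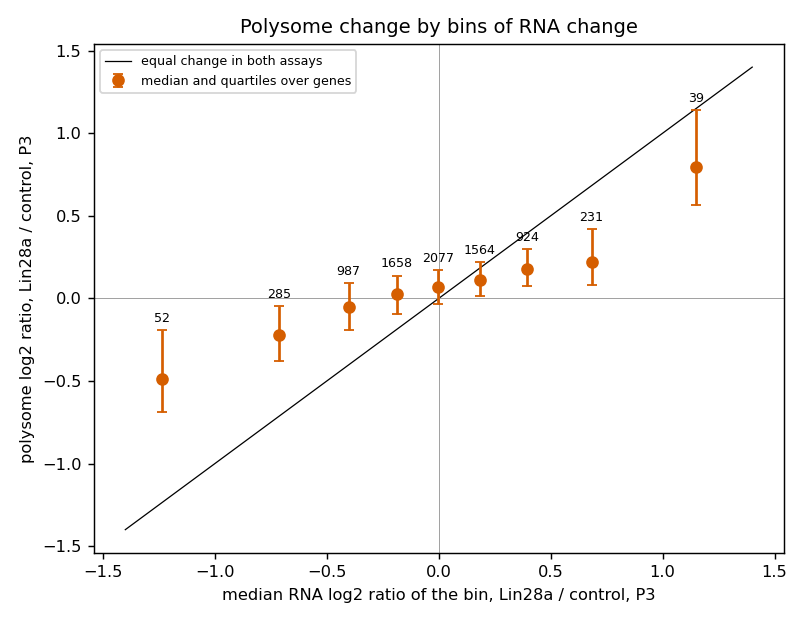
Genes are binned by their RNA log2 ratio of Lin28a over control at P3 (x axis, bin median), and each point gives the median polysome log2 ratio of the bin with its quartiles over genes as bars; the number of genes stands above each bar. The medians run from -0.49 in the 52 genes with the lowest RNA ratios to 0.79 in the 39 with the highest, and the outer bins lie closer to 0 than the line of equal change.

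Genes of mitosis formed the group with the lowest ratios, and their RNA carried it. Of the 33 mitosis genes, 32 were measured in all 4 libraries, and their median ratio change was -0.66, against 0.07 for all genes. All 32 lay below the median of all genes, 19 were lower past 1.5-fold and 0 higher, beside 1.60% lower among all genes. Their RNA log2 ratio had a median of 0.71, positive in 32 of 32, and their polysome log2 ratio a median of 0.04, positive in 22, with a median of 0.07 for all genes. RNA drove 31 of the 32, and the checkpoint gene Bub3, at -0.01, was carried by both assays. Summed over the list, RNA came to 1358 FPKM in Lin28a and 820 in control at P3, while polysomes came to 973 RPKM in Lin28a and 921 in control.

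The 4 mitosis genes with the lowest ratio change and a promoter entry, genes of a single chromosome left out, are shown with the sequence before their start. Cell-cycle genes of this class are known for CCAAT boxes, bound by NF-Y, and for a cell-cycle homology region (CHR), bound by the DREAM complex. The 160 bases before the annotated start are printed 5′ to 3′ on the gene's strand, from RefSeq on GRCm38.p6. Capitals mark the CCAAT box (CCAAT, read on either strand), the CHR (TTTGAA, likewise on either strand) and a variant of the CHR that reads TTTAAA. The motifs do not overlap in these windows.
Cenpf, chr1:189688087-189688246, minus strand: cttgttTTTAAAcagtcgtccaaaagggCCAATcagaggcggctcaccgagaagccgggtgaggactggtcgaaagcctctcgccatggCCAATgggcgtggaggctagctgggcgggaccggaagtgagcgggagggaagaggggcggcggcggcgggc
Mki67, chr7:135716380-135716539, minus strand: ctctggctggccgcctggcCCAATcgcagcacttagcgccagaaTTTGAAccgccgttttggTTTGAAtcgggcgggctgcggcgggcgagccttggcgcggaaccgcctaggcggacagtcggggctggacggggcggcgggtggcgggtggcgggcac
Bub1b, chr2:118598051-118598210, plus strand: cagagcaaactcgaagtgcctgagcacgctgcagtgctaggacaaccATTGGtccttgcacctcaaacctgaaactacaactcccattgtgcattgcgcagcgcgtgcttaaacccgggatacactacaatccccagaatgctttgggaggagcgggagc
Cenpa, chr5:30666726-30666885, plus strand: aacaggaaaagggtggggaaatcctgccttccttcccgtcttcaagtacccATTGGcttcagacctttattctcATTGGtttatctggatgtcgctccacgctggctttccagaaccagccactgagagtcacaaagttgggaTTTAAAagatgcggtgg

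Promoter windows of 250 bases before the start were matched for 26 of the 32 mitosis genes. A CCAAT box was in 21 of the 26 (80.8%), in 37.7% of 5998 windows of measured genes and in 34.5% of all 27025 windows. The CHR or its variant was in 14 of 26 (53.8%), against 16.1% of measured genes and 25.5% of all windows. Both motifs together were in 13 of 26 (50%), against 6.35% of measured genes. A match of letters is a description of these windows and no evidence of binding.

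Single mitosis genes are described by their levels in all 4 libraries. Cenpf, a large kinetochore protein, had 19.4 RPKM in Lin28a and 20.7 in control polysomes, and 14.2 FPKM in Lin28a and 7.41 in control RNA, a ratio change of -0.95. Mki67, the proliferation marker Ki-67, had 42.8 and 48.0 RPKM in Lin28a and control polysomes, and 30.1 and 17.3 FPKM in Lin28a and control RNA, a ratio change of -0.92. Bub1b, a kinase of the spindle checkpoint, was at 19.1 RPKM in both polysome libraries and at 29.8 FPKM in Lin28a and 15.7 in control RNA, a ratio change of -0.89. In all 3, polysome levels in Lin28a were at or slightly below control while RNA levels were well above it, with log2 ratios between 0.76 and 0.89. Cenpa, the centromeric histone, had 75.5 and 75.4 RPKM in Lin28a and control polysomes and 70.6 and 38.6 FPKM in Lin28a and control RNA. Plk1, the polo-like kinase, had 23.7 and 22.6 RPKM in Lin28a and control polysomes and 53.7 and 28.5 FPKM in Lin28a and control RNA. Both again differed mainly in RNA, with ratio changes of -0.85 for Cenpa and -0.82 for Plk1. The kinetochore gene Spc24 (-0.07) and Bub3 (-0.01) were the members nearest to 0.

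**Figure D3:**
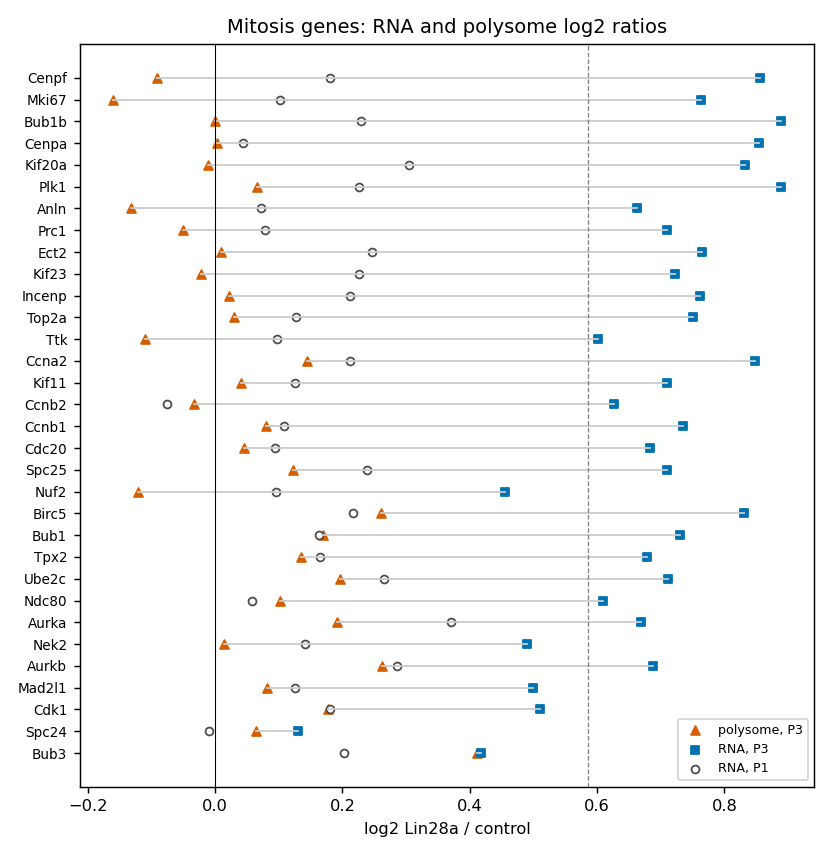
Log2 ratios of Lin28a over control (x axis) are drawn for the 32 mitosis genes, sorted from the lowest ratio change at the top: polysome at P3 (triangles), RNA at P3 (squares) and RNA at P1 (open circles), each from 1 library a group. The dashed line marks 1.5-fold; 26 of the 32 RNA ratios at P3 lie past it, and 0 of the polysome ratios.

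RNA-seq libraries of P1, which the ratio did not use, held a smaller difference of the same sign. The median P1 RNA log2 ratio of the 32 mitosis genes was 0.16, positive for 30 of them, with list sums of 1507 FPKM in Lin28a and 1341 in control. Among the 87 RNA-driven genes with a lower ratio, 70 had a positive RNA log2 ratio at P1 (median 0.12). Among the 198 RNA-driven genes with a higher ratio, 152 had a negative one at P1 (median -0.16), while over all 7817 genes 3843 were negative. RNA log2 ratios at P1 thus leaned to the side of those at P3 in both sets. Lin28a RNA in the Lin28a culture was higher at P1, at 478 FPKM, than at P3, at 104 FPKM.

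Other RNA-driven genes with the lowest ratios are not on the mitosis list. Some of them, such as the spindle-pole gene Aspm and the cyclin gene Ccnf, also belong to the cell cycle. Dab1, the adaptor of Reelin signalling, had the lowest ratio change of all, -1.12, with 14.1 and 15.5 RPKM in Lin28a and control polysomes and 29.4 and 14.2 FPKM in Lin28a and control RNA. Aspm, a spindle-pole protein needed for brain size, followed at -1.01, with 13.1 and 14.8 RPKM in Lin28a and control polysomes and 15.0 and 7.85 FPKM in Lin28a and control RNA. In both genes polysome levels were slightly lower in Lin28a while RNA was about doubled. Elavl4, the neuronal RNA-binding protein HuD, differed in both assays, with 8.81 and 5.01 RPKM in Lin28a and control polysomes and 22.2 and 6.05 FPKM in Lin28a and control RNA, a ratio change of -1.01. Its polysome level was higher in Lin28a, but less so than its RNA.
Ccnf, an F-box cyclin, had a ratio change of -0.99 with 17.9 and 17.3 RPKM in Lin28a and control polysomes and 26.5 and 12.5 FPKM in Lin28a and control RNA. C330027C09Rik, now Cip2a, an inhibitor of protein phosphatase 2A, was at -0.97 and the phosphatase Cdkn3 at -0.94. The chloride transporter Clcn5 was at -0.93, the G protein regulator Rgs16 at -0.91 and Mdm4, an inhibitor of p53, at -0.88, each with a polysome log2 ratio between -0.16 and 0.10.

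Among genes with RNA-driven higher ratios, RNA was lower in Lin28a while the polysome level was close to control. Dhrs1, a short-chain dehydrogenase, had 20.7 and 22.3 RPKM in Lin28a and control polysomes and 86.2 and 320 FPKM in Lin28a and control RNA, a ratio change of 1.78. Its RNA log2 ratio was -1.88, with a polysome log2 ratio of -0.10. Crip1, a small LIM-domain protein, was at 1.42, with 5.96 and 5.37 RPKM in Lin28a and control polysomes and 21.1 and 53 FPKM in Lin28a and control RNA. S100a4, a calcium-binding protein, was at 1.27, with 5.24 and 5.16 RPKM in Lin28a and control polysomes, close to the minimum of 5, and 14.5 and 36.1 FPKM in Lin28a and control RNA. Fabp7, the brain fatty-acid-binding protein of radial glia, was among the most abundant, with 1067 and 936 RPKM in Lin28a and control polysomes and 1753 and 3418 FPKM in Lin28a and control RNA, a ratio change of 1.15. Fabp7 and the genes before it differ in level by orders of magnitude. Lower RNA beside a small polysome difference is what defines an RNA-driven higher ratio, so that shared form is no separate observation. The mitochondrial carrier Slc25a33 (1.17), the latent TGF-beta binding protein Ltbp3 (1.17), the claudin Cldn10 (1.11) and the caveolar protein Prkcdbp (1.08) were RNA-driven as well.

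The very highest values are uncertain as gene measurements. Rps27 had a ratio change of 2.61, with 18.1 and 17.0 RPKM in Lin28a and control polysomes and 25.6 and 152 FPKM in Lin28a and control RNA. Rps27 shares sequence with Rps27l, which was at -0.30 with 345 and 367 FPKM in Lin28a and control RNA, and how reads were divided between them is not given. Snora28, a small nucleolar RNA inside a host gene's intron, was at 2.00, with 44.9 and 173 FPKM in Lin28a and control RNA at P3, and at P1 it was at 74.0 FPKM in Lin28a and listed at the floor in control. Rnaset2a (1.08) belongs to a pair of near-identical ribonuclease genes, so its value is open to the same doubt.

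**Figure D4:**
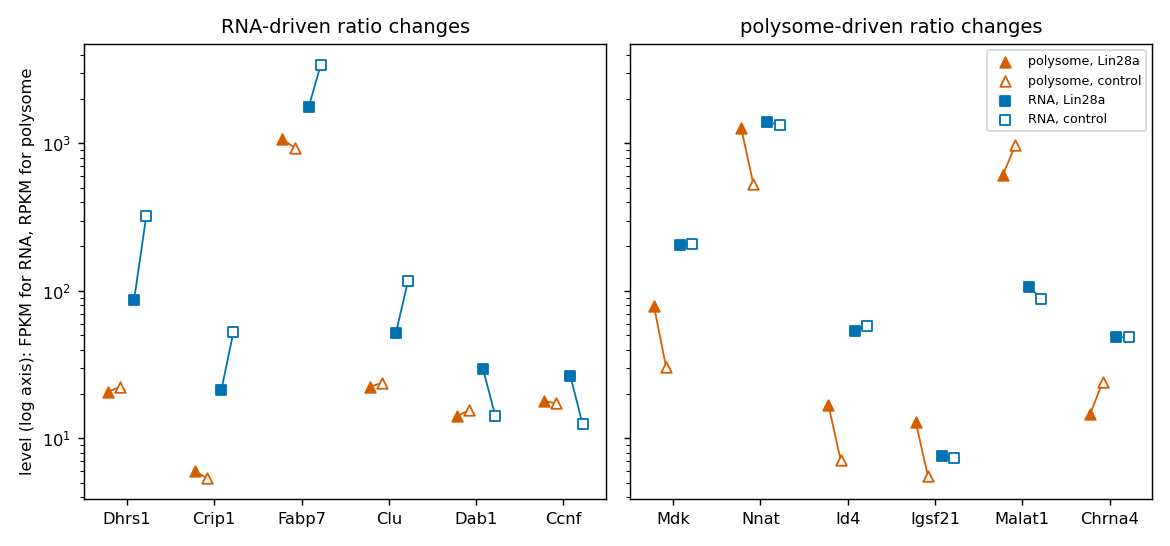
Levels of 12 genes are drawn on a log axis, in RPKM for polysomes (triangles) and FPKM for RNA (squares), with Lin28a filled and left of control, open, in 1 library each. For the RNA-driven genes Dhrs1, Crip1, Fabp7, Clu, Dab1 and Ccnf the lines between the squares are steep and those between the triangles nearly flat; for the polysome-driven genes Mdk, Nnat, Id4, Igsf21, Malat1 and Chrna4 it is the reverse.

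Polysome-driven changes were fewer, and by definition their RNA log2 ratios were small beside their polysome log2 ratios. Mdk, the heparin-binding growth factor midkine, had 79.0 and 30.3 RPKM in Lin28a and control polysomes and 205 and 207 FPKM in Lin28a and control RNA, a ratio change of 1.36. Nnat, the imprinted membrane protein neuronatin, had 1264 and 528 RPKM in Lin28a and control polysomes and 1402 and 1328 FPKM in Lin28a and control RNA, a ratio change of 1.18. For Mdk and Nnat the polysome level in Lin28a was more than 2-fold that of control at nearly equal RNA. Id4, an inhibitor of basic helix-loop-helix factors, was at 1.24, with 16.7 and 7.12 RPKM in Lin28a and control polysomes and 53.8 and 58.1 FPKM in Lin28a and control RNA. Igsf21, a synaptic adhesion protein, was at 1.04, with 12.9 and 5.54 RPKM in Lin28a and control polysomes and 7.60 and 7.32 FPKM in Lin28a and control RNA. Mdk, Nnat, Id4 and Igsf21 were the 4 polysome-driven genes past 2-fold.
Further polysome-driven genes with higher ratios were Nudt14, a UDP-glucose hydrolase (0.95), Cthrc1, a secreted collagen-repeat protein (0.85), Ezr, the membrane-cytoskeleton linker ezrin (0.80), and the neugrin gene Ngrn (0.80). Cthrc1 had 33.1 and 17.1 RPKM in Lin28a and control polysomes and 24.7 and 23.6 FPKM in Lin28a and control RNA. Of the 51 genes in this class, 32 had a negative RNA log2 ratio at P1, with a median of -0.06.

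Polysome-driven lower ratios were found for 10 genes. Chrna4, a nicotinic receptor subunit, had 14.7 and 24.1 RPKM in Lin28a and control polysomes and 48.6 and 48.3 FPKM in Lin28a and control RNA, a ratio change of -0.69. Kcnc1, a fast potassium channel, was at -0.75, with 12.4 and 18.5 RPKM in Lin28a and control polysomes and 14.7 and 12.6 FPKM in Lin28a and control RNA. Eno2, the neuronal enolase, was at -0.70 and Ppp1r1a, an inhibitor of protein phosphatase 1, at -0.67, with polysome log2 ratios of -0.60 and -0.53. In these 4 genes polysome levels were lower in Lin28a at RNA levels equal to or slightly above control. The matrix gene Col12a1 (-0.67) and the phosphoinositide-binding protein Plekha2 (-0.64) belong to the same class.
Malat1, a nuclear long non-coding RNA, had the lowest value among them, -0.93, with 614 and 968 RPKM in Lin28a and control polysomes and 107 and 87.6 FPKM in Lin28a and control RNA. A transcript known as nuclear and non-coding thus stood among the high polysome values.

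Genes carried by both assays in opposed directions included growth-factor receptors. Egfr, the epidermal growth factor receptor, was at -1.08, with 40.7 and 62.6 RPKM in Lin28a and control polysomes and 78.4 and 56.2 FPKM in Lin28a and control RNA. Its P1 RNA, 14.3 FPKM in Lin28a and 21.8 in control, differed in the other direction from its P3 RNA. Fgfr3, a fibroblast growth factor receptor, was at 1.07, with 17.3 and 13.3 RPKM in Lin28a and control polysomes and 40.0 and 66.0 FPKM in Lin28a and control RNA. Id2, a relative of Id4, was at 1.22, with 133 and 94.8 RPKM in Lin28a and control polysomes and 145 and 241 FPKM in Lin28a and control RNA. For Egfr the polysome level was lower and RNA higher in Lin28a, and for Fgfr3 and Id2 the reverse held. The proteoglycan Vcan (-0.90), the spindle protein Ckap2l (-0.97) and the RNA-binding protein Cpeb4 (-0.78) resembled Egfr, and fibronectin, Fn1 (0.90), and the ribosome assembly factor Eif6 (0.93) resembled Id2.

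Some of the largest differences left the ratio near the median because both assays moved together. Past 1.5-fold in both assays and within 0.1 of the median ratio change there were 20 genes higher and 11 lower in Lin28a. Tmeff1, a transmembrane protein with follistatin domains, had 47.3 and 18.0 RPKM in Lin28a and control polysomes and 41.7 and 17.4 FPKM in Lin28a and control RNA, a ratio change of 0.13. Fgfbp3, which binds fibroblast growth factors, had 33.6 and 13.3 RPKM in Lin28a and control polysomes and 80.8 and 32.2 FPKM in Lin28a and control RNA (-0.02). Both were more than 2-fold higher in Lin28a in either assay. Apcdd1, an inhibitor of Wnt signalling (0.05), the long non-coding RNA Miat (0.04) and the floor plate factor Foxa1 (0.07) were also higher, and Eya2, a developmental phosphatase (0.05), and Nfkbiz, a nuclear IkB protein (0.08), were lower in both.

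Genes of protein synthesis were split by compartment. The 80 cytosolic ribosomal protein genes had a median ratio change of 0.02, a polysome median of 0.03 and an RNA median of 0.04. Of them 1, Rps27, was higher past 1.5-fold, beside 4.46% of all genes. The 55 translation factors were at 0.01, with Eif6 the 1 higher past 1.5-fold, beside the same 4.46%. Both medians turn negative when the libraries are rescaled (-0.13 each), which shifts the median of all genes by -0.14. Relative to that median, 50 of the 80 ribosomal protein genes and 33 of the 55 factors lay below. Within the factors Eif4b, a helicase cofactor of initiation, was at -0.57, and Eef2, the translocase of elongation, had 843 and 1050 RPKM in Lin28a and control polysomes and 1179 and 1135 FPKM in Lin28a and control RNA (-0.37). Pabpc1, the cytoplasmic poly(A)-binding protein, was at -0.54 and was polysome-driven.
Mitochondrial ribosomal proteins lay higher, with a median of 0.23 over 71 genes, 58 of them above the median of all genes, and 6 of the 71 higher past 1.5-fold, beside 4.46% of all genes, led by Mrps6 (0.86) and Mrpl36 (0.83). Translation repressors and cap regulators, among them Eif4ebp2 (-0.44), lay lower, with a median of -0.16 over 21 genes, 17 of them below the median of all genes and 2 lower past 1.5-fold, beside 1.60% of all genes.

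Lists of oxidative phosphorylation, proteasome, endoplasmic reticulum and cholesterol synthesis genes had ratio medians above that of all genes and negative RNA medians. The 78 oxidative phosphorylation genes had a median ratio change of 0.31, with 71 above the median of all genes, and 8 higher and 0 lower past 1.5-fold, beside 4.46% higher and 1.60% lower among all genes. Their RNA log2 ratio had a median of -0.28, negative in 75, and their polysome log2 ratio one of 0.06. Ndufa4, a subunit of the respiratory chain, had 399 and 326 RPKM in Lin28a and control polysomes and 320 and 455 FPKM in Lin28a and control RNA, a ratio change of 0.80. Atp5g3 (0.69) and Atp5g1 (0.68) encode the same ATP synthase subunit from different genes, and both were under 1.5-fold after rescaling, at 0.54 each. Single genes of the list ran from -0.49 to 0.80.
The 33 proteasome subunits were at a median of 0.34, 30 above the median of all genes, but none was past 1.5-fold in either direction. Proteasome genes had a polysome median of 0.15, against 0.07 for all genes, and an RNA median of -0.10, against -0.01 for all genes. By the signs of their log2 ratios, which depend on library scaling, 19 of the 33 were carried by both assays in opposed directions. The 44 genes of endoplasmic reticulum translocation and folding had a median of 0.27, and 4 of them were higher past 1.5-fold, beside 4.46% of all genes. Of these Sdf2l1 was at 0.94, the oligosaccharyltransferase subunit Dad1 at 0.90 and the chaperone Hspa5 (BiP) at 0.71, or 0.56 after rescaling. Hspa5 had 62.0 and 49.2 RPKM in Lin28a and control polysomes and 136 and 178 FPKM in Lin28a and control RNA. Cholesterol synthesis genes had a median of 0.20 over 21 genes, with Tm7sf2, a sterol reductase, at 0.87, with an RNA median of -0.22. The 21 glycolysis genes had a median of 0.17, with 13 above and 8 below the median of all genes, 0 higher and 1 lower past 1.5-fold (Eno2) and a polysome median of -0.09.

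**Figure D5:**
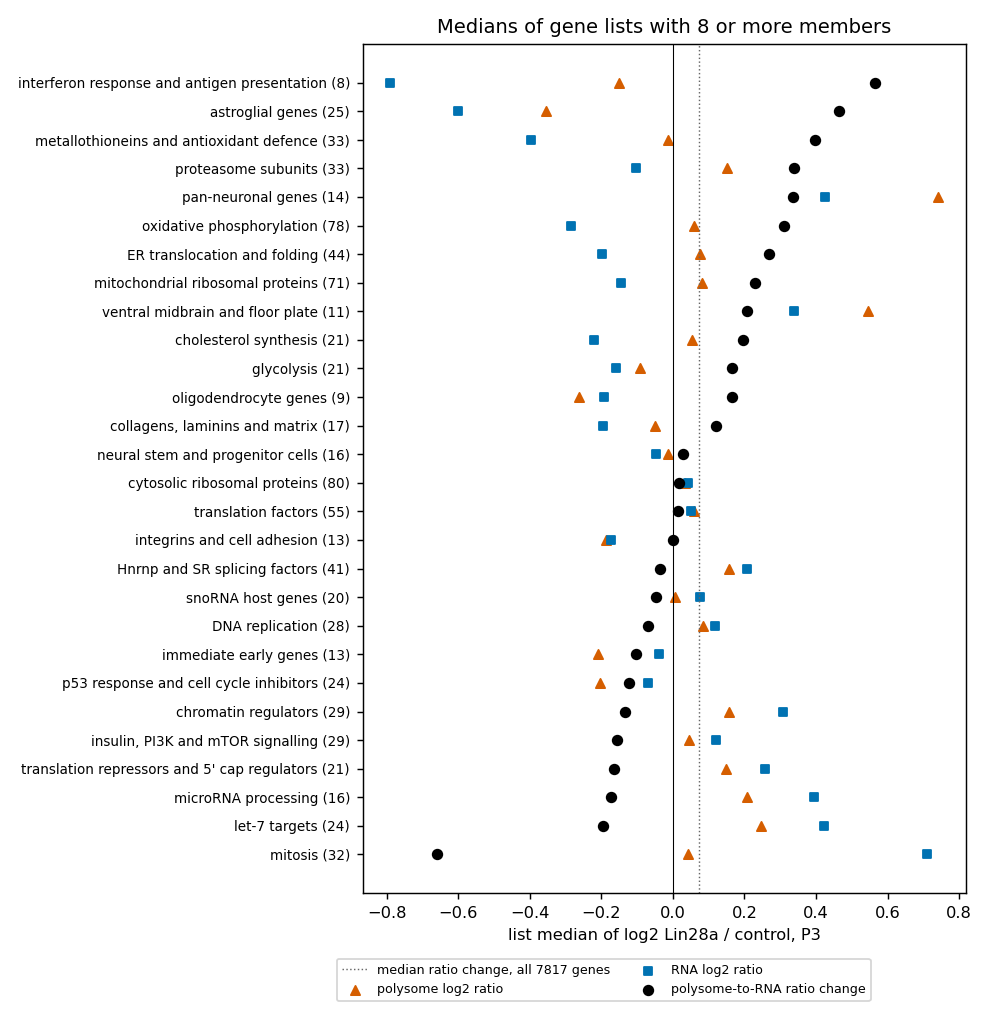
Medians over gene lists with 8 or more measured members (number in brackets) are given for the polysome log2 ratio (triangles), the RNA log2 ratio (squares) and the polysome-to-RNA ratio change (circles), all Lin28a over control at P3. The dotted line is the median ratio change of all 7817 genes, 0.07; mitosis lies lowest at -0.66 and interferon response genes highest at 0.56. With libraries rescaled to equal totals, the medians of oligodendrocyte, matrix, neural stem, cytosolic ribosomal, translation factor and integrin genes turn from positive to negative.

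Most astroglial genes had lower RNA in Lin28a, with a smaller median difference in polysomes. Of 32 such genes, 25 were measured in all 4 libraries, with medians of -0.60 for RNA, -0.36 for polysomes and 0.47 for the ratio change, and 11 were higher past 1.5-fold, beside 4.46% of all genes. The whole list summed to 8273 FPKM in Lin28a and 14967 in control RNA, and to 2089 RPKM in Lin28a and 2735 in control polysomes. Clu, the secreted chaperone clusterin, had 22.4 and 23.7 RPKM in Lin28a and control polysomes and 51.4 and 117 FPKM in Lin28a and control RNA, a ratio change of 1.09. Aqp4, the water channel of astrocyte endfeet, had 7.12 and 11.6 RPKM in Lin28a and control polysomes and 46.8 and 143 FPKM in Lin28a and control RNA (0.95). Apoe, the lipid carrier of astrocytes, had 53.8 and 78.9 RPKM in Lin28a and control polysomes and 1218 and 3154 FPKM in Lin28a and control RNA (0.83). Aqp4 and Apoe were lower in Lin28a in both assays, and less so in polysomes. Over the 25 genes, RNA log2 ratios were negative for 24, while polysome log2 ratios were negative for 18 and positive for 7. Id4 (1.24) and Fgfr3 (1.07), described above, belong to this list and were higher in Lin28a polysomes. Ratio changes below the median of all genes were found for 5 of the 25, among them the matrix gene Tnc (-0.54) and the neurotrophin receptor Ntrk2 (-0.37). Ntrk2 had 17.3 and 37.4 RPKM in Lin28a and control polysomes and 171 and 277 FPKM in Lin28a and control RNA. Whether the cultures differ in their share of astroglial cells, and what part that has in these ratios, was not tested.

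Antioxidant and interferon lists also had negative RNA medians and ratio medians above that of all genes. The 33 metallothionein and antioxidant genes had a median ratio change of 0.40, an RNA median of -0.40 and a polysome median of -0.01, with 30 above the median of all genes and 8 higher past 1.5-fold, beside 4.46% of all genes. Mt2, a zinc-binding metallothionein, was lower in both assays, with 48.4 and 104 RPKM in Lin28a and control polysomes and 298 and 1076 FPKM in Lin28a and control RNA, a ratio change of 0.76. Mt3 was alike at 0.80, with 196 and 361 RPKM in Lin28a and control polysomes and 120 and 386 FPKM in Lin28a and control RNA. The peroxiredoxins Prdx6 (0.69) and Prdx5 (0.66) and the glutathione transferase Gsta4 (0.76) differed mainly in RNA. Mt1, Mt2 and Mt3 are members of the astroglial list as well.
Of 28 interferon and antigen presentation genes only 8 were measured in all 4 libraries, with a median of 0.56 and 4 higher past 1.5-fold, beside 4.46% of all genes. B2m, the light chain of MHC class I, had 37.9 and 33.1 RPKM in Lin28a and control polysomes and 58.3 and 109 FPKM in Lin28a and control RNA, a ratio change of 1.08. Ifitm3, an antiviral membrane protein, was at 0.75 and H2-K1, an MHC heavy chain, at 0.68, or 0.51 after rescaling. H2-K1 belongs to a family of similar genes, and its reads may be shared with them. RNA was lower in Lin28a for 8 of these 8 genes, by a median of -0.79.

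Pan-neuronal and ventral midbrain lists had positive medians in both assays, with members on both sides. The 14 pan-neuronal genes measured of 40 had a polysome median of 0.74 (13 positive), an RNA median of 0.43 (11 positive) and a ratio median of 0.34, with 2 higher and 1 lower past 1.5-fold, beside 4.46% and 1.60% of all genes. The ratio median was 0.16 with genes at 1 or more in all 4 libraries. At P1 their RNA went the other way, with a median log2 ratio of -0.27, negative for 13 of 14, and the whole list summed to 3060 FPKM in Lin28a and 3541 in control. Tubb3, the neuronal tubulin, had 35.1 and 6.49 RPKM in Lin28a and control polysomes and 96.8 and 22.2 FPKM in Lin28a and control RNA, a ratio change of 0.19. Tagln3, an actin-binding protein of neurons, was at 0.69, with 34.9 and 15.9 RPKM in Lin28a and control polysomes and 40.0 and 30.1 FPKM in Lin28a and control RNA, and at 0.56 after rescaling. Tubb3 differed alike in both assays, while Tagln3 differed mainly in polysomes. The tubulin-binding protein Stmn3 was at 0.59, or 0.46 after rescaling, and members ran down to Dcx, a migration protein (-0.53), and Elavl4 (-1.01), so the list did not move one way. Genes that were low in control fail the minimum, and 8 further neuronal genes failed it in polysomes alone, so the measured ones are not the whole group. Over all 40, polysome values summed to 707 RPKM in Lin28a and 489 in control and RNA to 1696 FPKM in Lin28a and 1237 in control. Any part of a different share of neurons in the cultures was not tested.

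Genes of the ventral midbrain and floor plate gave 11 measured members of 31, with a median of 0.21. None was past 1.5-fold, beside 4.46% higher and 1.60% lower among all genes. En1, a midbrain homeobox factor, had 13.0 and 6.42 RPKM in Lin28a and control polysomes and 8.83 and 5.83 FPKM in Lin28a and control RNA, a ratio change of 0.39. Slit2, an axon guidance ligand, was at 0.27 with 23.1 and 8.48 RPKM in Lin28a and control polysomes and 14.2 and 6.25 FPKM in Lin28a and control RNA. Polysome differences exceeded RNA differences for both genes. Ntn1, the guidance cue netrin-1 (0.43), was polysome-driven, with RNA slightly lower in Lin28a, and Ptch1, the Hedgehog receptor, lay lowest at -0.32. RNA log2 ratios were negative for 4 of the 11. At P1 their median RNA log2 ratio was -0.08, negative for 8 of the 11. Of 19 genes of midbrain dopamine neurons 3 were measured, En1, En2 (0.37) and the GDNF receptor subunit Gfra1 (0.40). The median ratio change of this list was 0.39, but 0.09 with genes at 1 or more in all 4 libraries. At P1 the RNA log2 ratio was negative for all 3, with a median of -0.18. Foxa2 and Lmx1b, which define midbrain floor plate cells, were under 5 in control RNA and polysomes and have no ratio change. Their levels were 6.47 and 2.36 RPKM in Lin28a and control polysomes and 3.64 and 0.830 FPKM in Lin28a and control RNA for Foxa2, and 11.5 and 4.43 RPKM in Lin28a and control polysomes and 5.15 and 0.971 FPKM in Lin28a and control RNA for Lmx1b.

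Neural stem cell markers were present and near the middle. Sox2 had 94.4 and 96.5 RPKM in Lin28a and control polysomes and 372 and 390 FPKM in Lin28a and control RNA. The 16 measured stem and progenitor genes had a median ratio change of 0.03. Fabp7 was the 1 higher past 1.5-fold and 0 were lower, beside 4.46% higher and 1.60% lower among all genes. The intermediate filament Nes was at -0.32. Microglial markers summed to 1.02 and 0.910 RPKM in Lin28a and control polysomes and to 1.94 and 2.17 FPKM in Lin28a and control RNA, and none of the 12 reached 5 in all 4 libraries. None of the 9 neural crest markers did either, and of 11 endothelial markers only Egfl7 did, at 0.24. Acta2 (0.36) and Tagln (-0.18), smooth muscle genes, were the 2 measured of 14 mesenchymal markers, which summed to 48.6 and 49.7 RPKM in Lin28a and control polysomes and to 303 and 461 FPKM in Lin28a and control RNA. Of 26 oligodendrocyte genes 9 were measured and 13 failed the minimum in polysomes only, and Olig1, at 0.59, was below 1.5-fold under both other scalings. The list summed to 469 and 592 RPKM in Lin28a and control polysomes and to 2384 and 3448 FPKM in Lin28a and control RNA. The median ratio change of a list need not be the difference between its polysome and RNA medians, as in this list, at 0.16, -0.26 and -0.19.

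By their medians, targets of let-7, which Lin28a is known to raise by blocking let-7, were higher in RNA more than in polysomes. The 24 measured of 41 had an RNA median of 0.42, a polysome median of 0.25 and a ratio median of -0.20, with 19 below the median of all genes. Igf2bp2, an RNA-binding protein of embryonic cells, had 19.5 and 11.5 RPKM in Lin28a and control polysomes and 16.8 and 5.88 FPKM in Lin28a and control RNA, a ratio change of -0.65. Tgfbr1, a TGF-beta receptor, was at -0.58, just short of 1.5-fold, with 25.2 and 13.1 RPKM in Lin28a and control polysomes and 35.8 and 12.2 FPKM in Lin28a and control RNA. Both were higher in Lin28a in both assays, and further apart in RNA. Dicer1, the enzyme that cuts microRNA precursors, had 12.2 and 8.66 RPKM in Lin28a and control polysomes and 18.3 and 8.39 FPKM in Lin28a and control RNA, a ratio change of -0.59. RNA log2 ratios were positive for 21 of the 24 and negative for 3. Myc was at 0.44 and RNA-driven, with 13.5 and 13.6 RPKM in Lin28a and control polysomes and 8.64 and 12.1 FPKM in Lin28a and control RNA. Ccnd1, cyclin D1, which was lower in Lin28a in both assays, was at 0.25, so the list held members on both sides.
MicroRNA processing genes, which include Dicer1, had a median of -0.17 over 16 members, 14 of them below the median of all genes. Ago2, the slicing Argonaute, led them at -0.95, with 24.5 and 19.6 RPKM in Lin28a and control polysomes and 17.3 and 6.62 FPKM in Lin28a and control RNA. The RNA helicase Ddx17 was at -0.49, and the nuclease Drosha and the exporter Xpo5 were at 0.00 and 0.01. RNA log2 ratios were positive for 16 of 16.

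Other growth and nuclear groups lay below the median of all genes by less. Insulin, PI3K and mTOR genes had a median of -0.16 over 29 members with none past 1.5-fold, with the receptor Insr at -0.48. Chromatin regulators had a median of -0.13 over 29, with 1 lower past 1.5-fold, beside 1.60% of all genes. It was the remodeller Chd7 at -0.77, which had 14.8 and 14.1 RPKM in Lin28a and control polysomes and 26.4 and 14.4 FPKM in Lin28a and control RNA. DNA replication genes had a median of -0.07 over 28 members with none past 1.5-fold, and the sign turned with the minimum, being 0.02 with a minimum of 1 and 0.12 with a minimum of 20. Their RNA median was 0.12, against 0.71 for mitosis, and Cdc45, a helicase cofactor, was lowest at -0.49 and Rpa3, a single-strand binding subunit, highest at 0.49. Splicing factors were at -0.04 over 41 genes and immediate early genes at -0.10 over 13. Cell cycle inhibitors and p53 targets had a median of -0.12 over 24 and spread both ways, with Igfbp3 at 0.89, the inhibitor Cdkn2b (p15) at 0.82 and the receptor Eda2r at -0.77. Cdkn2b had 9.76 and 13.3 RPKM in Lin28a and control polysomes and 23.8 and 57.2 FPKM in Lin28a and control RNA. Matrix genes lay above the median of all genes (0.07), at a median of 0.12 over 17 of 74. Of the 17, 2 were higher and 2 lower past 1.5-fold, beside 4.46% and 1.60% of all genes. Integrin and adhesion genes had a median of 0.00 over 13, with the integrin Itgb5 at 0.71, and snoRNA host genes one of -0.05 over 20.

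Histone genes were high in the polysome libraries and low in the RNA-seq libraries. Of 49 replication-dependent histone genes, whose mRNAs mostly lack a poly(A) tail, 44 reached 5 in both polysome libraries but not in both RNA libraries. Over the list polysome values summed to 22816 RPKM in Lin28a and 15999 in control, and RNA values to 156 FPKM in Lin28a and 179 in control. The 4 measured genes had ratio changes between 0.42 and 1.36, with Hist1h2bc highest at 451 and 335 RPKM in Lin28a and control polysomes and 13.5 and 26.6 FPKM in Lin28a and control RNA. Hist1h1c was at 1.22, and all such genes have near-identical relatives. Per the labels, libraries of both assays were poly(A)-selected, yet the library kit named there is one for total RNA. Among the 143 non-coding accessions the median ratio change was 0.03, with 8 higher and 4 lower past 1.5-fold, beside 4.46% and 1.60% of all genes.

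Ratio changes past 1.5-fold were spread over all levels. Among the 1955 genes whose lowest level in the 4 libraries was between 5.00 and 8.14, the median was 0.05, with 90 higher and 29 lower past 1.5-fold. Among the 1954 with a lowest level of 24.2 or more, it was 0.14, with 103 higher and 20 lower. Over all 7817 genes, 349 were higher (4.46%) and 125 lower (1.60%). The 100 genes just inside the minimum had a median ratio change of 0.04 and quartiles of -0.14 and 0.18, and the 100 just outside had 0.02, -0.20 and 0.25. In all, 1312 genes passed the minimum in RNA but not in polysomes, and 635 in polysomes but not in RNA.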

How the data were processed

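RNA-seq values were deposited by the authors as FPKM per RefSeq gene, and polysome values in the same layout are read here as RPKM deposited by the authors; the headers do not name the unit, which was taken from the tools and the values. Bowtie 1.0.0, TopHat2 2.0.6, Cufflinks 2.1.1 and build mm9 are named per the submitters' processing notes, with no role for each. Depth is unknown, so no counting interval is given, and the assays were quantified separately, so only Lin28a over control ratios within an assay are combined. A pseudocount of 1 understates differences of low genes. Ratios, drivers and list medians were computed with Python 3.11.15, numpy 2.4.6 and pandas 2.3.3, and the calculation was checked on simulated data. Members, the 34 lists and the alternatives were chosen with earlier results of these data known. Named genes are the 20 highest and 20 lowest ratio changes, up to 3 of each list by size, the 10 highest and lowest polysome-driven and RNA-driven genes, and up to 5 each way that moved together; further list members were chosen after their values were seen. Promoter sequences are RefSeq's on GRCm38.p6. The 4 small RNA libraries and protein properties were not analysed here, and some genes that the rule names are not reported here.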

Additional observations from a re-analysis of the deposited data

How the results depend on the processing

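With a pseudocount of 0.1, 395 genes had a higher and 159 a lower polysome-to-RNA ratio past 1.5-fold, and with none 405 and 161. Genes at 1 or more in all 4 libraries (11424) gave 598 higher and 236 lower, and genes at 20 or more (2453) gave 125 and 26 with a median ratio change of 0.13, since the set of genes differs. Libraries rescaled to equal totals gave 144 higher and 269 lower at a median of -0.067, and a median set to 0 gave 222 and 198. Both scalings shifted the median ratio change downward, by -0.14 and -0.07, so the 125 lower genes could hardly leave their side under them. Of the 349 higher genes, 144 stayed higher past 1.5-fold after rescaling and 222 with the median set to 0. With a pseudocount of 0.1 and with none, the 125 stayed lower, and 348 and 347 of the 349 stayed higher. No named gene past 1.5-fold changed sign. Median shifts of -0.14 and -0.07 are too small to reverse such a gene, and other minimum levels leave its value unchanged, so this is no check. After rescaling, 8 named genes dropped below 1.5-fold (Atp5g1, Atp5g3, H2-K1, Hspa5, Itgb5, Olig1, Stmn3, Tagln3), and Olig1 and Stmn3 did so with the median set to 0. Rescaling turned 7 list medians negative: matrix, cytosolic ribosomal proteins, integrins, mesenchymal, neural stem, oligodendrocyte and translation factors. Other minimum levels turned DNA replication positive (0.02 at 1, 0.12 at 20) and moved the pan-neuronal median to 0.16 at 1. No paired analysis was possible because each group is 1 library. With 1 library a group, no replicate can be left out, and differences between cultures, dishes or library preparations cannot be told apart from the effect of Lin28a.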
